A study of Mus musculus with 12 samples.

Results

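Keratins and keratin-associated proteins were followed through RNA-seq libraries of dermal papilla cells sorted from mouse skin. The set held every gene whose mouse symbol is Krt followed by a number alone, or Krtap followed by hyphenated numbers, where a closing letter was allowed. These were 104 of the 25887 genes in the tables: 50 keratins and 54 keratin-associated proteins. Of these 104, 67 had a read in at least 1 library, 37 had none, and 10 had a read in all 12 libraries. The lettered keratins Krt6a, Krt6b, Krt33a and Krt33b fell outside this naming rule, and their summed level was at most 7.68 normalized counts in any library.

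Keratins are the intermediate filament proteins of epithelial cells, and each filament pairs a type I with a type II chain. Pairs differ by layer: Krt5 and Krt14 are made by basal cells, Krt1 and Krt10 by the suprabasal epidermis, Krt25 to Krt28 and Krt71 to Krt74 by the inner root sheath, and the hair keratins by the shaft. Keratin-associated proteins form the matrix around hair keratin filaments and are made late in the growing shaft. The dermal papilla is a small mesenchymal body in the follicle bulb, next to the epithelial matrix that makes these proteins, and is not itself an epithelium.

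Each of the 4 groups had 3 libraries. The P28 Smo* libraries came from male mice at postnatal day 28 with a gain-of-function form of Smo, the Hedgehog pathway transducer, in the dermal papilla, and were labelled anagen I-III (early hair growth). The P28 WT libraries came from male wild-type mice of that age and were labelled anagen VI (full growth). The P20 Smo* and P20 WT libraries came from female mice of the same 2 genotypes at postnatal day 20, all labelled telogen (rest). All were primary cells sorted by flow cytometry, with no other treatment labelled, and libraries were made from 100 ng of total RNA after ribosomal depletion. The driver of the Smo* allele and the markers of the sort are not stated in the labels. Genotype and stage differed together at P28, and age, stage and sex differed together between P28 and P20, so their parts in a difference cannot be told apart. Each library's title carries a bracketed number of its own, which the labels do not explain. No label says that the libraries of a group came from separate animals, so p-values here describe spread among libraries that may be technical repeats.

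Depth ran over 36323058 to 48926831 reads on genes per library. Levels are given as normalized counts, which are the authors' read counts divided by 1 size factor per library; 1 normalized count was worth 0.842 to 1.17 reads. P28 Smo* replicate 3 stood apart: 529 genes had 1 to 5 reads there, against 1944 to 2472 in the other 11 libraries, and 13 of the 104 genes had a read there, against 24 to 48. Some results are also given without that library. Those of Krt23 and Krt77, the median over the tested keratins and most class sums at P28 are given only with it. The dermal papilla marker list, 10 genes including Vcan, Wif1 and Hhip, summed to 215008, 333365 and 48371 normalized counts in the 3 P28 Smo* libraries, 368190 to 427979 in P28 WT, 64952 to 78261 in P20 Smo* and 42677 to 48874 in P20 WT. Smo itself, the altered gene, had 7487, 8694 and 7551 normalized counts in P28 Smo* libraries, against 5725, 5418 and 6144 in P28 WT, and 6351, 7528 and 7342 in P20 Smo*, against 5225, 5037 and 5038 in P20 WT. Its level was higher in every Smo* library than in any WT library of the same age, at log2 fold changes of 0.46 (SE 0.12, adjusted p = 0.0502) at P28 and 0.47 (SE 0.10, adjusted p = 0.111) at P20; the deposited counts do not separate an altered allele from the native one.

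Keratin RNA was a trace of each library. All 104 genes together took 23.3 ± 1.89 RPM (reads per 1000000 reads on genes) in P28 Smo*, 39.1 ± 4.54 in P28 WT, 16.8 ± 2.45 in P20 Smo* and 24.9 ± 12.6 in P20 WT (SD, n = 3 each). Krt10, Krt19, Krt20 and Krt5 made up 50.65% to 82.62% of these reads in single libraries. On the length-corrected scale of normalized counts per kilobase of exon, Krt10 averaged 81.9 in P28 Smo*, 144 in P28 WT, 76.3 in P20 Smo* and 126 in P20 WT. The papilla gene Wif1, a secreted Wnt inhibitor, averaged 21936 per kilobase in P28 Smo*, 38148 in P28 WT, 4379 in P20 Smo* and 1729.9 in P20 WT, so the most abundant keratins were far below it in every group. In bulk RNA of this kind, fewer cells of a type and less RNA per cell cannot be told apart.

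The classes did not move as a block. Simple epithelial keratins were the most abundant class in P28 Smo* libraries, at 13.8 ± 4.45 RPM, against 10.3 ± 3.05 in P28 WT (SD, n = 3 each). Basal keratins summed to 1.88 ± 1.28 RPM in P28 Smo* and 7.15 ± 5.54 in P28 WT, and suprabasal keratins to 4.57 ± 2.17 in P28 Smo* and 13.8 ± 8.07 in P28 WT (SD, n = 3 each). The inner root sheath class had 0.329 ± 0.0877 RPM in P28 Smo* and 1.61 ± 0.875 in P28 WT, and the keratin-associated proteins 0.0755 ± 0.0949 in P28 Smo* and 0.754 ± 0.322 in P28 WT (SD, n = 3 each). Companion layer and upper follicle keratins had 0.629 ± 0.178 RPM in P28 Smo* and 2.14 ± 0.903 in P28 WT (SD, n = 3 each). Every P28 Smo* library lay below every P28 WT library for 5 classes: suprabasal, companion layer, inner root sheath, other epithelia and keratin-associated proteins. The ranges overlapped for the simple, basal and shaft classes. Without P28 Smo* replicate 3 the log2 ratio of mean sums, Smo* over WT, was -2.25 for the inner root sheath class, beside -2.29 with it, and -2.74 for the keratin-associated proteins, beside -3.32 with it. These sums are descriptions with no test.

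**Figure D1:**
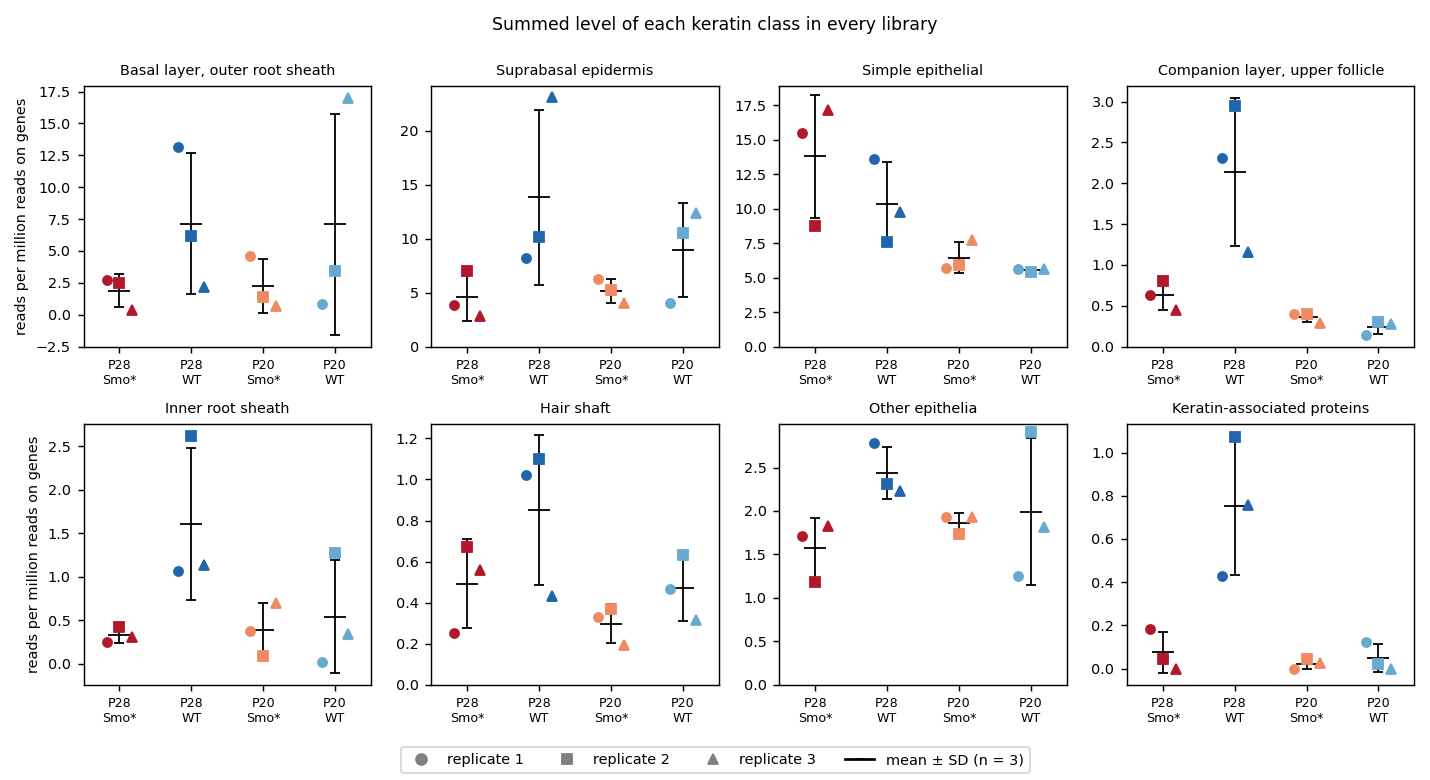
Summed level of each keratin class (y axis, RPM, reads per 1000000 reads on genes, each panel on its own scale) in the 12 libraries, grouped on the x axis as P28 Smo*, P28 WT, P20 Smo* and P20 WT. Points are libraries, bars are the mean ± SD of 3; simple epithelial keratins are highest in P28 Smo* at 13.8 RPM on average, while keratin-associated proteins average 0.0755 in P28 Smo* and 0.754 in P28 WT.

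Tests were run on log2(normalized count + 1) with limma across all genes with a mean of at least 10 normalized counts in the libraries fitted, and adjusted p-values (Benjamini-Hochberg) under 0.05 were called. That filter kept 16 of the 104 genes at P28 and 10 at P20, all of them keratins; 88 of the 104 were tested in no comparison, including every keratin-associated protein. At P28, 2 of the 16 tested keratins were called between Smo* and WT: Krt19 rose and Krt71 fell. A gene that passes the filter through 1 group alone is bound to differ, so counts over the 16 describe the keratins that passed. Across all genes tested at P28, 8.9% were called, 4.05% higher and 4.85% lower in Smo*. The median log2 fold change of the 16 was -1.09, beside -0.01 over all genes, and 11 of the 16 were below 0. The groups did not overlap for 7 of the 16, 2 of them higher and 5 lower in Smo*, a separation that 33.4% of all genes tested showed, 15.6% higher and 17.8% lower.

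At P20, limma called 0 of the 10 tested keratins, where 0.696% of all genes tested were called. Before adjustment 4 of the 10 were under 0.05: Krt10, Krt15, Krt19 and Krt20. The share of all genes under 0.05 before adjustment was not counted, so this and the later unadjusted counts show no excess. On the recovered reads, edgeR made 0 calls and DESeq2 made 1, Krt20, which is the keratin called in the authors' deposited table as well. The median of the 10 was -1.08, beside 0.0025 over all genes, with 8 below 0; the groups did not overlap for 1 of the 10, Krt20, lower in Smo*, as for 8.34% of all genes.

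**Figure D2:**
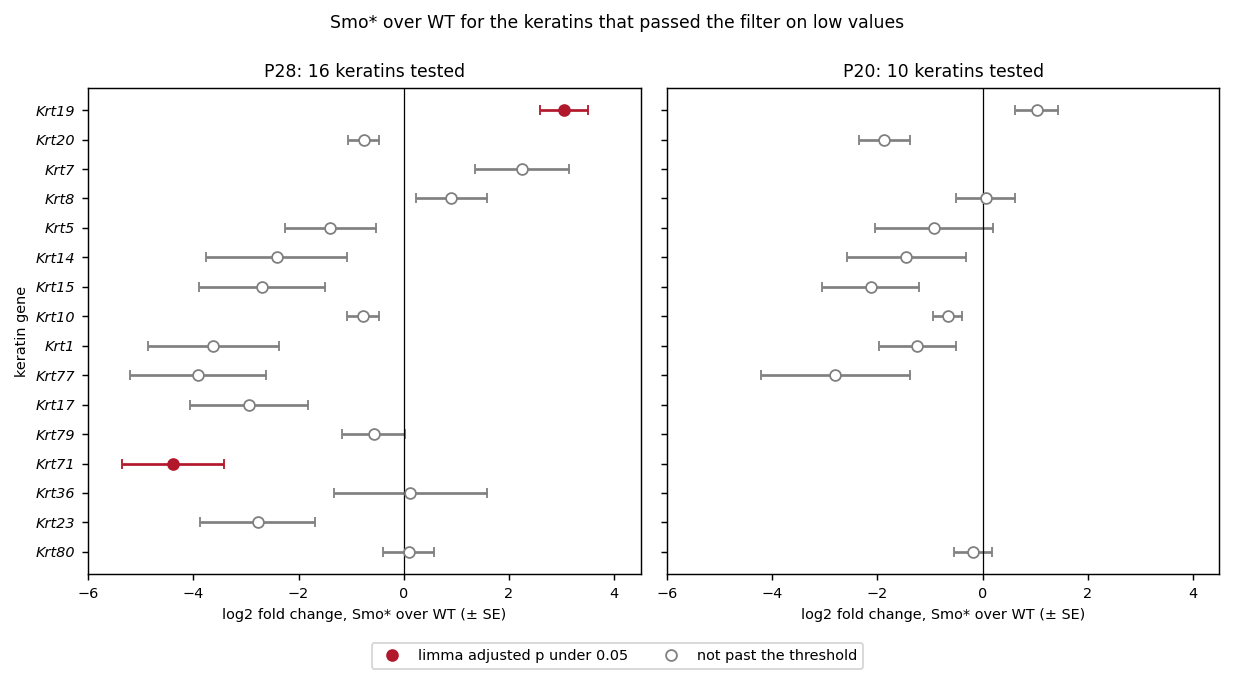
Log2 fold change of Smo* over WT (x axis, points, with bars of 1 SE) for the keratins that passed the filter (y axis), at P28 on the left and P20 on the right. Filled points passed the limma threshold: Krt19 at 3.05 and Krt71 at -4.39, both at P28.

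Among the simple epithelial keratins, which line single-layered epithelia and are also made in parts of the follicle, Krt19 gave the only limma call between genotypes. Krt19 is a type I keratin known in the bulge and outer root sheath of the follicle; the gene (ENSMUSG00000020911) lies at chr11:100140810-100148665 on the minus strand of GRCm38 and overlaps no other annotated gene. Its normalized counts were 491, 200.1 and 498 in the P28 Smo* libraries, against 69.1, 27.3 and 43.3 in P28 WT. Every P28 Smo* library was above every P28 WT library, by 8.26-fold on the fitted scale (log2 3.05, SE 0.45, limma adjusted p = 0.00671). The call held when any 1 of the 6 libraries was left out, with log2 fold changes of 2.72 to 3.48 and adjusted p of at most 0.0323; without P28 Smo* replicate 3 it was 2.82 (adjusted p = 0.00969).

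At P20, Krt19 had 194, 153 and 225 normalized counts in Smo* libraries, against 50.9, 87.4 and 172 in WT. The highest WT library was above the lowest Smo* library, and the log2 fold change of 1.03 (SE 0.41) was not called (adjusted p = 0.391). The difference between the effect at P28 and that at P20 was 2.01 on the log2 scale (SE 0.67, limma adjusted p = 0.106), which was not called; DESeq2 gave it an adjusted p of 0.0133, and limma without P28 Smo* replicate 2 gave 0.0439. Between ages, Krt19 was not called in Smo* (log2 0.95, SE 0.47, adjusted p = 0.254) or in WT (log2 -1.06, SE 0.47, adjusted p = 0.123). Without P20 WT replicate 1 the WT value passed the threshold, at 0.0481.

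The other markers of basal and outer root sheath keratinocytes did not move as 1 group beside Krt19. Of 16 markers, 15 were tested at P28, where limma called 3 higher in Smo* and 0 lower, with an unadjusted p under 0.05 for 9; edgeR called 3 higher and 1 lower, and DESeq2 4 higher and 3 lower. The 3 were Cldn1, a tight junction protein (log2 3.08, SE 0.28, adjusted p = 0.00065), and the paired hemidesmosome integrins Itgb4 (log2 2.67, SE 0.23, adjusted p = 0.000578) and Itga6 (log2 1.32, SE 0.22, adjusted p = 0.0117). The whole list summed to 5349 to 9793 normalized counts in P28 Smo*, 2153 to 2270 in P28 WT, 4613 to 6980 in P20 Smo* and 3173 to 5566 in P20 WT. Cldn1, Itgb4 and Itga6 averaged 2741, 2438 and 1840 in P28 Smo*, so the sum mainly follows these 3 genes and does not describe the others. Of the 15, 5 were above 0 and 10 below, with a median log2 fold change of -0.45. Epcam, an epithelial adhesion molecule named after its values were seen, was at 0 in P28 Smo* replicate 3 only. The endothelial markers Cdh5 (log2 4.37, SE 0.45, adjusted p = 0.00125) and Pecam1 (log2 1.53, adjusted p = 0.0146) also rose at P28, 2 of the 6 endothelial and immune markers tested. Kdr, also endothelial, did not (log2 0.07, SE 0.33, limma adjusted p = 0.918). Of the 6 endothelial and immune markers, 4 were above 0 and 2 below. That list summed to 1825 to 3404 normalized counts in P28 Smo*, 862 to 1228 in P28 WT, 1632 to 2229 in P20 Smo* and 703 to 1655 in P20 WT. The part of these cell types in the Krt19 result was not tested.

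Krt20, a type I keratin known from the gut lining and from Merkel cells of the skin, differed between ages in both genotypes. The gene (ENSMUSG00000035775) lies at chr11:99428403-99438150 on the minus strand of GRCm38, and no other annotated gene overlaps it. Krt20 had 210.5, 142 and 277 normalized counts in P28 Smo*, 479.6, 289.8 and 295 in P28 WT, 18.6, 40.9 and 35.6 in P20 Smo*, and 198, 119.7 and 59.7 in P20 WT. Within each age every Smo* library was below every WT library, and within each genotype every P28 library was above every P20 library.

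The promoter of Krt20 is shown because its levels differed between ages in both genotypes. It runs from 250 bases before to 50 bases after the annotated start in the RefSeq table for GRCm38.p6, chr11:99438104-99438403 on the minus strand, written 5′ to 3′. Capitals mark TATAAA, the TATA box letters, which began 29 bases before the start.
Krt20: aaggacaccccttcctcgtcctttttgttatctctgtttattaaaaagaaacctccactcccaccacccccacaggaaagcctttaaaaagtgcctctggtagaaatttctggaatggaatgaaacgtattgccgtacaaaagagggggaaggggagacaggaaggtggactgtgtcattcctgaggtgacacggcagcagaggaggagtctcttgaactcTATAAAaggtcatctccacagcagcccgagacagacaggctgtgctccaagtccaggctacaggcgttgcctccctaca

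The age difference of Krt20 passed the threshold in both genotypes. In Smo* the P28 over P20 log2 fold change was 2.71 (SE 0.43, limma adjusted p = 0.0124), and in WT it was 1.61 (SE 0.43, adjusted p = 0.0172). The Smo* call ended without P28 Smo* replicate 1 (0.0535), and the WT call without P20 WT replicate 3 (0.0712) or P28 WT replicate 1 (0.0668). Between genotypes, the Smo* over WT log2 fold change was -1.87 at P20 (SE 0.48, limma adjusted p = 0.167) and -0.76 at P28 (SE 0.30, adjusted p = 0.153), neither called. The count model DESeq2 gave the P20 difference an adjusted p of 0.00274, and the authors' deposited table lists it at 1.56, counted as WT over Smo*, with an adjusted p of 0.000983. The genotype effect did not differ between ages beyond the threshold (log2 1.10, SE 0.61, adjusted p = 0.321).

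Genes known from Merkel cells, chosen after the Krt20 values were seen, were mostly near 0. Atoh1, a transcription factor that Merkel cells need, was at 0 in 11 of the 12 libraries and at 4.36 normalized counts in P20 Smo* replicate 2. Isl1 was at 12.8 in P28 Smo* replicate 3 and at most 1.83 elsewhere, and Chga was at most 3.65. Piezo2, a mechanosensitive channel that other cells make too, had 581 to 948 normalized counts in P28 Smo*, 2989.6 to 4266 in P28 WT, 454 to 858 in P20 Smo* and 354 to 521 in P20 WT.

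The remaining simple keratins were scarce. Krt7, a type II keratin of ducts and glands, had 32, 8.54 and 19.3 normalized counts in P28 Smo* and 0.853, 4.75 and 4.6 in P28 WT. Every P28 Smo* library was above every P28 WT library, but the log2 fold change of 2.25 (SE 0.90) was not called (limma adjusted p = 0.159); 1 fit over all 12 libraries gave 0.0483, and Krt7 is called in the authors' deposited table (log2 -1.46 as WT over Smo*, adjusted p = 0.0109). An antisense gene overlaps Krt7, and no label says whether reads were counted by strand. Krt8, the type II partner of Krt18, had 14.3, 19.9 and 25.7 normalized counts in P28 Smo*, against 17.9, 4.75 and 11.1 in P28 WT (log2 0.90, adjusted p = 0.426). Krt18, named after its values were seen because it is the partner of Krt8, had at most 2 reads in any library. The summed class had 6.46 ± 1.10 RPM in P20 Smo* and 5.56 ± 0.123 in P20 WT (SD, n = 3 each).

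**Figure D3:**
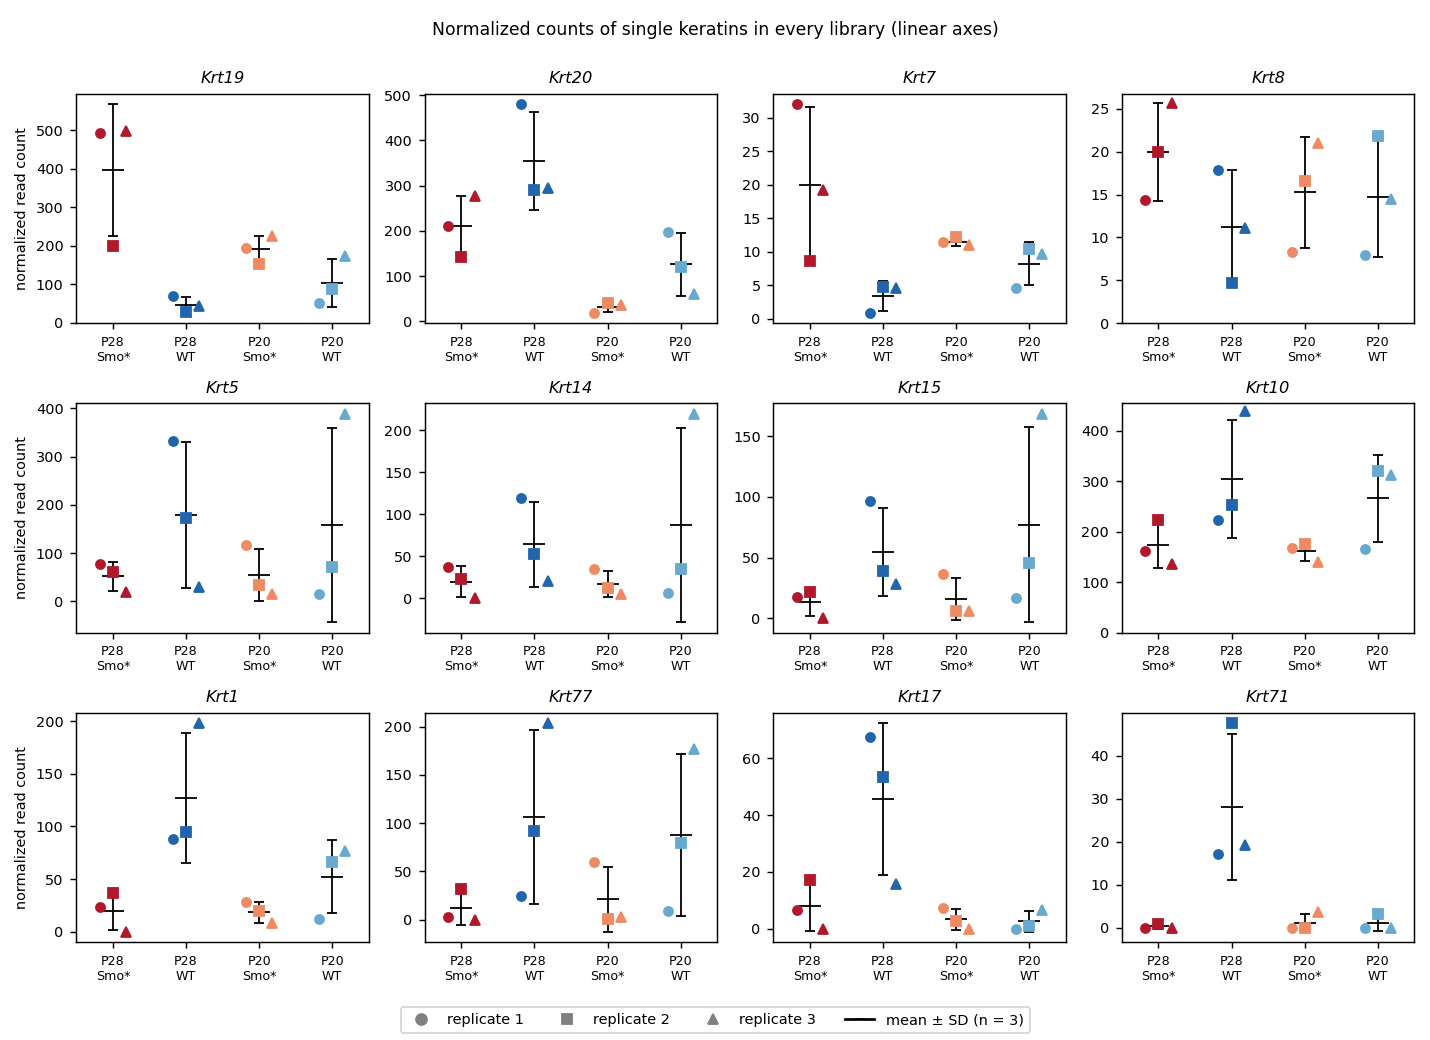
Normalized read counts (y axis, linear, each panel on its own scale) of 12 keratins in the 12 libraries, grouped as P28 Smo*, P28 WT, P20 Smo* and P20 WT; points are libraries, bars are the mean ± SD of 3. Krt19 sits at 200.1 to 498 in P28 Smo* and 27.3 to 69.1 in P28 WT, whereas Krt5, Krt14 and Krt15 spread widely inside P20 WT, with replicate 3 on top.

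The basal keratins varied more among the P20 WT libraries than between group means. Krt5, the type II keratin of basal cells, had 77.1, 61.6 and 19.3 normalized counts in P28 Smo*, 332, 172 and 30.4 in P28 WT, 117, 34.8 and 14.6 in P20 Smo*, and 14.7, 71.8 and 388 in P20 WT. Its highest and lowest library differed 26.4-fold inside P20 WT alone, and the groups overlapped at both ages. Krt14, its type I partner, had 37.5, 22.8 and 0 normalized counts in P28 Smo*, 119, 53.4 and 20.3 in P28 WT, 35.1, 12.2 and 5.48 in P20 Smo*, and 6.78, 35.4 and 219.7 in P20 WT. Krt14 followed Krt5 library by library: the ratio of Krt14 to Krt5 reads was 0.301 to 0.667 in 11 libraries and 0 in P28 Smo* replicate 3, while the ratio of Krt19 to Krt5 reads ran over 0.159 to 25.9. These ratios share each library's depth and are a description.

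Krt15, a type I keratin of basal cells and of the bulge, had 17.6, 21.8 and 0 normalized counts in P28 Smo*, 96.4, 39.2 and 28.5 in P28 WT, 36.1, 6.1 and 5.48 in P20 Smo*, and 17, 45.8 and 169 in P20 WT. At P28 its groups did not overlap, with every Smo* library lower. None of the 3 basal keratins was called at P28, where the log2 fold changes were -1.40 for Krt5 (SE 0.87, adjusted p = 0.344), -2.42 for Krt14 (SE 1.35, adjusted p = 0.293) and -2.70 for Krt15 (SE 1.19, adjusted p = 0.195). Without P28 Smo* replicate 3, where Krt14 and Krt15 were at 0, they were -0.80 for Krt5 (adjusted p = 0.600), -0.78 for Krt14 (adjusted p = 0.523) and -1.24 for Krt15 (adjusted p = 0.206). None was called at P20 either, with log2 fold changes of -0.92 for Krt5 (adjusted p = 0.826), -1.45 for Krt14 (adjusted p = 0.696) and -2.13 for Krt15 (adjusted p = 0.437). The Krt5 value at P20 turned to 0.26 without P20 WT replicate 3. Krt19 averaged higher in Smo* at both ages, and these 3 averaged lower.

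The 3 tested suprabasal keratins, Krt10, Krt1 and Krt77, were lower on average in Smo* at both ages, and none was called by limma. Krt10, the type I keratin of differentiating epidermis, had 161, 223 and 136 normalized counts in P28 Smo*, 223, 252 and 438 in P28 WT, 167, 176 and 141 in P20 Smo*, and 166, 319 and 312 in P20 WT. Its log2 fold change was -0.78 at P28 (SE 0.31, limma adjusted p = 0.155) and -0.66 at P20 (SE 0.27, adjusted p = 0.408), and an antisense gene overlaps it. Krt1, its type II partner, had 23.1, 37 and 0 normalized counts in P28 Smo*, 87.9, 95 and 198 in P28 WT, 27.9, 19.2 and 8.21 in P20 Smo*, and 12.4, 66.6 and 77.1 in P20 WT. At P28 every Krt1 value in Smo* was below every WT value.

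Whether the Krt1 difference at P28 was called turned on the test and on 1 library. Its log2 fold change was -3.62 (SE 1.25, limma adjusted p = 0.115) with all libraries and -1.98 (adjusted p = 0.0248) without P28 Smo* replicate 3, where Krt1 was at 0. DESeq2 called it with all libraries kept (log2 -2.65, adjusted p = 0.0191), and it is called in the authors' deposited table (log2 1.5 as WT over Smo*, adjusted p = 0.0101). Krt77, a type II keratin, had 3.31, 32.2 and 0 normalized counts in P28 Smo*, 24.7, 91.5 and 204 in P28 WT, 59.9, 0.871 and 2.74 in P20 Smo*, and 9.04, 79.1 and 176 in P20 WT. Its groups overlapped at both ages, with log2 fold changes of -3.91 at P28 (adjusted p = 0.104) and -2.80 at P20 (adjusted p = 0.516), and without P28 Smo* replicate 2 the P28 difference was called (adjusted p = 0.0287). Krt2 had at most 9 reads in any library.

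Other suprabasal and cornified markers, 4 of 10 tested at P28, gave 0 calls with limma and edgeR at either age, with an unadjusted limma p under 0.05 for 2 at P28 and 1 at P20; DESeq2 called 1 at P28, Sbsn, and 0 at P20. The list summed to 268 to 382 normalized counts in P28 Smo*, 201 to 249 in P28 WT, 134 to 269 in P20 Smo* and 179.7 to 329 in P20 WT. At P28, 2 of the 4 tested were above 0 and 2 below. Sbsn, a secreted protein of the differentiating epidermis, had 256, 217 and 309 normalized counts in P28 Smo*, against 150.2, 152 and 83.8 in P28 WT (log2 1.05, SE 0.29, adjusted p = 0.0615). Sbsn alone made up most of the list sum in P28 Smo*, so the sum mainly follows 1 gene there.

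In the companion layer and upper follicle class, limma called Krt17 and Krt79 between ages in WT and neither between genotypes. Krt17, a type I keratin of the outer root sheath and of activated epidermis, had 6.61, 17.1 and 0 normalized counts in P28 Smo*, 67.4, 53.4 and 15.7 in P28 WT, 7.23, 2.61 and 0 in P20 Smo*, and 0, 1.04 and 6.75 in P20 WT. All 3 P28 WT libraries were above all 3 P20 WT libraries (log2 3.98, SE 1.22, limma adjusted p = 0.0315). That call ended without P20 WT replicate 1 (0.102) or 2 (0.0853) and without P28 WT replicate 1 (0.103) or 2 (0.0946). Krt17 averaged 45.5 normalized counts in P28 WT, 7.89 in P28 Smo*, 3.28 in P20 Smo* and 2.6 in P20 WT. It thus passed the filter through P28 WT alone, so a difference from that group was favoured in advance. Krt17 was not called between genotypes at P28 (log2 -2.94, SE 1.13, adjusted p = 0.145; -1.76, adjusted p = 0.173, without P28 Smo* replicate 3), although it is called in the authors' deposited table (log2 1.17 as WT over Smo*, adjusted p = 0.0491). The gene (ENSMUSG00000035557) lies at chr11:100256217-100261029 on the minus strand.

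Krt79, a type II keratin of cells of the infundibulum, had 19.8, 12.3 and 21.4 normalized counts in P28 Smo*, 23, 53.4 and 14.7 in P28 WT, 9.3, 10.5 and 7.3 in P20 Smo*, and 5.65, 5.2 and 4.82 in P20 WT. Every P28 library was above every P20 library in each genotype. The age difference was called in WT (log2 2.14, SE 0.55, limma adjusted p = 0.0133), ended there without P28 WT replicate 2 (0.0653), and was not called in Smo* (log2 0.89, SE 0.55, adjusted p = 0.359). The gene (ENSMUSG00000061397) lies at chr15:101929332-101940324 on the minus strand. Krt75, the companion layer keratin, had 1, 5 and 0 reads in P28 Smo*, against 5, 17 and 8 in P28 WT, and Krt16 had at most 5 reads in any library.

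Of the 15 keratins tested between ages, 1 was called in Smo* (Krt20, higher at P28), where 3.46% of all genes tested were called and 1.98% were higher. In WT 3 were called (Krt17, Krt20 and Krt79, all higher at P28), where 25.4% of all genes were called and 13.5% were higher. The ages did not overlap for 2 of 15 in Smo* and 5 of 15 in WT, all higher at P28, beside 12.2% of all genes higher in Smo* and 23.6% higher in WT. Here too a gene that passes the filter through 1 group alone, as Krt17 did, is bound to differ. The counts over the 15 therefore describe the keratins that passed. For the difference in genotype effect between ages, limma called 0 of the 15, where 4.72% of all genes were called; before adjustment 1 of the 15, Krt19, was under 0.05, and edgeR made 0 calls while DESeq2 made 1.

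The inner root sheath and shaft classes had few reads, and their distribution over libraries is the result. Krt71, a type II keratin, had the most reads of the inner root sheath class. The gene (ENSMUSG00000051879) lies at chr15:101733949-101743109 on the minus strand of GRCm38 and overlaps no other annotated gene. Krt71 had 0, 0.948 and 0 normalized counts in P28 Smo*, against 17.1, 47.5 and 19.3 in P28 WT; it had 0, 0 and 3.65 in P20 Smo* and 0, 3.12 and 0 in P20 WT. All 3 P28 WT libraries stood above the other 9.

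In reads, Krt71 had 1 in the P28 Smo* libraries together and 81 in P28 WT, a depth-corrected ratio of WT over Smo* of 75.7 with an exact 95% interval of 13.2 to 3026 that covers counting error only. The fitted log2 fold change at P28, which the added 1 draws toward 0, was -4.39 (SE 0.97, limma adjusted p = 0.0301). The call ended without P28 Smo* replicate 1 (0.062), P28 WT replicate 1 (0.0959) or P28 WT replicate 3 (0.158), and without P28 WT replicate 2 the gene was under the filter and not tested. It held without P28 Smo* replicate 2, and without replicate 3 (log2 -4.23, adjusted p = 0.0154). Krt71 passed the filter through its WT libraries alone.

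The promoters of Krt71 and of Krt25, a type I keratin of the same sheath, are shown beside that of Krt20 above. They span the same distances around the start in the RefSeq table for GRCm38.p6, at chr15:101743048-101743347 for Krt71 and chr11:99322902-99323201 for Krt25, both on the minus strand and written 5′ to 3′. Capitals again mark TATAAA, which began 40 bases before the start in Krt71 and 30 in Krt25.
Krt71: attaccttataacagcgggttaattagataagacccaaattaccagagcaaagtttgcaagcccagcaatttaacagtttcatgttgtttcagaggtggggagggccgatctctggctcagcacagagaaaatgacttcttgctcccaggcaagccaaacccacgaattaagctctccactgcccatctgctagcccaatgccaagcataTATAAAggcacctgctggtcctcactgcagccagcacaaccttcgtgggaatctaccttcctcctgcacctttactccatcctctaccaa
Krt25: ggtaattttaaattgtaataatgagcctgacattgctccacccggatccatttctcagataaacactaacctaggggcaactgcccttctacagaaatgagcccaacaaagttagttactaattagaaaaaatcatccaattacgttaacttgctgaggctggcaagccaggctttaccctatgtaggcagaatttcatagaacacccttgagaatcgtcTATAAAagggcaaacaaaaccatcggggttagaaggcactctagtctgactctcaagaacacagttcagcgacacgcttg
Counting either strand, TATAAA was in 70.2% of the 84 member promoters listed, which belong to 83 of the 104 genes, and in 13.6% of all 32851 promoters of this length. CTTTGA, the core letters that LEF/TCF factors bind, was in 25.0% of member promoters and 16% of all. GACCACCCA, the consensus of the Hedgehog effectors Gli, was in 0 of the 84 and in 0.253% of all. Neither of the last 2 strings was in the 3 promoters shown. These are matches of letters on either strand and say nothing of binding.

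Krt25 had 6.61, 9.48 and 0 normalized counts in P28 Smo*, against 11.9, 11.9 and 12.9 in P28 WT; it had 2.07, 1.74 and 0.913 in P20 Smo* and 0, 4.16 and 0 in P20 WT. As for Krt71, all 3 P28 WT libraries stood above the other 9 in normalized counts. In reads, however, Krt25 had 10 in both P28 Smo* replicate 2 and P28 WT replicate 2. Krt28, also type I, and Krt72, a type II keratin of the sheath cuticle, did not share this order. Krt28 had 0, 3 and 12 reads in P28 Smo*, 5, 17 and 4 in P28 WT, 3, 0 and 0 in P20 Smo*, and 1, 1 and 2 in P20 WT. Krt72 had its highest count, 28 reads, in P20 WT replicate 2. By library, 7 of the 8 inner root sheath genes had a read in every P28 WT library, against 2 to 4 in P28 Smo*, 2 to 5 in P20 Smo* and 1 to 6 in P20 WT; Krt74 had no read. The class held 44 reads in P28 Smo*, 192 in P28 WT, 48 in P20 Smo* and 71 in P20 WT. Of the 8, only Krt71 passed the filter, so the others were not tested at P28.

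The summed hair shaft keratins, the type I and type II chains of cortex and cuticle, did not show the gap of the inner root sheath. The 13 genes held 66 reads in P28 Smo*, 107 in P28 WT, 37 in P20 Smo* and 61 in P20 WT. In RPM this was 0.492 ± 0.217 in P28 Smo*, 0.851 ± 0.367 in P28 WT, 0.298 ± 0.0935 in P20 Smo* and 0.471 ± 0.159 in P20 WT (SD, n = 3 each). These ranges overlapped between Smo* and WT at both ages. Krt36, a type I hair keratin, had 1.1, 16.1 and 12.8 normalized counts in P28 Smo* and 26.5, 13.1 and 0 in P28 WT (log2 0.12, SE 1.45, limma adjusted p = 0.967). Krt36 and Krt82, a type II keratin of the shaft cuticle, held most of the reads of the class and were also present in telogen: Krt36 had 16, 19 and 7 reads in P20 WT, and Krt82 had 3, 11 and 8 in P20 Smo*. The class sum therefore mainly follows these genes and does not describe the scarcer ones. Of the 13 genes, 10 had a read in P28 WT, 7 in P28 Smo*, 4 in P20 Smo* and 4 in P20 WT. Krt35, a type I hair keratin, had 1, 1 and 0 reads in P28 Smo*, against 4, 9 and 3 in P28 WT. Krt83 had at most 5 reads in any library. Krt31, named after its values were seen, had 10 reads, all in P28 WT replicate 3. Krt32, Krt39 and Krt40 had none.

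Keratin-associated proteins were read almost only in P28 WT. Their 54 genes held 109 reads in all: 8, 2 and 0 in the P28 Smo* libraries, 21, 39 and 30 in P28 WT, 0, 2 and 1 in P20 Smo*, and 5, 1 and 0 in P20 WT. The lowest P28 WT library was above the highest of the other 9, and this is a comparison of sums with no test. Of the 54, 24 had a read; all 24 had one in P28 WT, and 18 had one nowhere else. Single genes reached at most 8 reads in a library, and 13 of the 24 had 3 reads or fewer in all.

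The reads came from every family class. Among the 18 high glycine-tyrosine genes, 8 had a read, and the class held 0 reads in P28 Smo*, 31 in P28 WT, 1 in P20 Smo* and 0 in P20 WT. Krtap7-1 had 0 reads in P28 Smo*, 7, 5 and 2 in P28 WT and 1 in P20 Smo*, and was the only gene of the 54 with a read in every P28 WT library. Krtap8-1 had 1, 8 and 0 reads in P28 WT, Krtap16-3 had 3 and Krtap16-1 had 1, and none of these was read in any other group. Classes went by family number; Krtap16-1 lies on chromosome 11 and the other 17 genes of this class on chromosome 16, so its class is uncertain. Among the 19 high-sulfur genes, 9 had a read, with 4 reads in P28 Smo*, 31 in P28 WT, 1 in P20 Smo* and 4 in P20 WT. Krtap28-13 was read in P28 Smo* and P20 WT too, whereas Krtap11-1, Krtap13-1 and Krtap1-5 were read in P28 WT alone, at 6, 5 and 4 reads. Among the 17 ultra-high-sulfur genes, 7 had a read, with 6 reads in P28 Smo*, 28 in P28 WT, 1 in P20 Smo* and 2 in P20 WT. Krtap17-1 had 4 reads in P28 Smo*, 7 in P28 WT and 2 in P20 WT; Krtap4-16 had 2 in P28 Smo* and 2 in P28 WT, and Krtap5-5 and Krtap4-2 had 7 each, all in P28 WT. Members of a Krtap family are close copies of each other, so the counting could have split or dropped their reads, and single genes are uncertain.

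**Figure D4:**
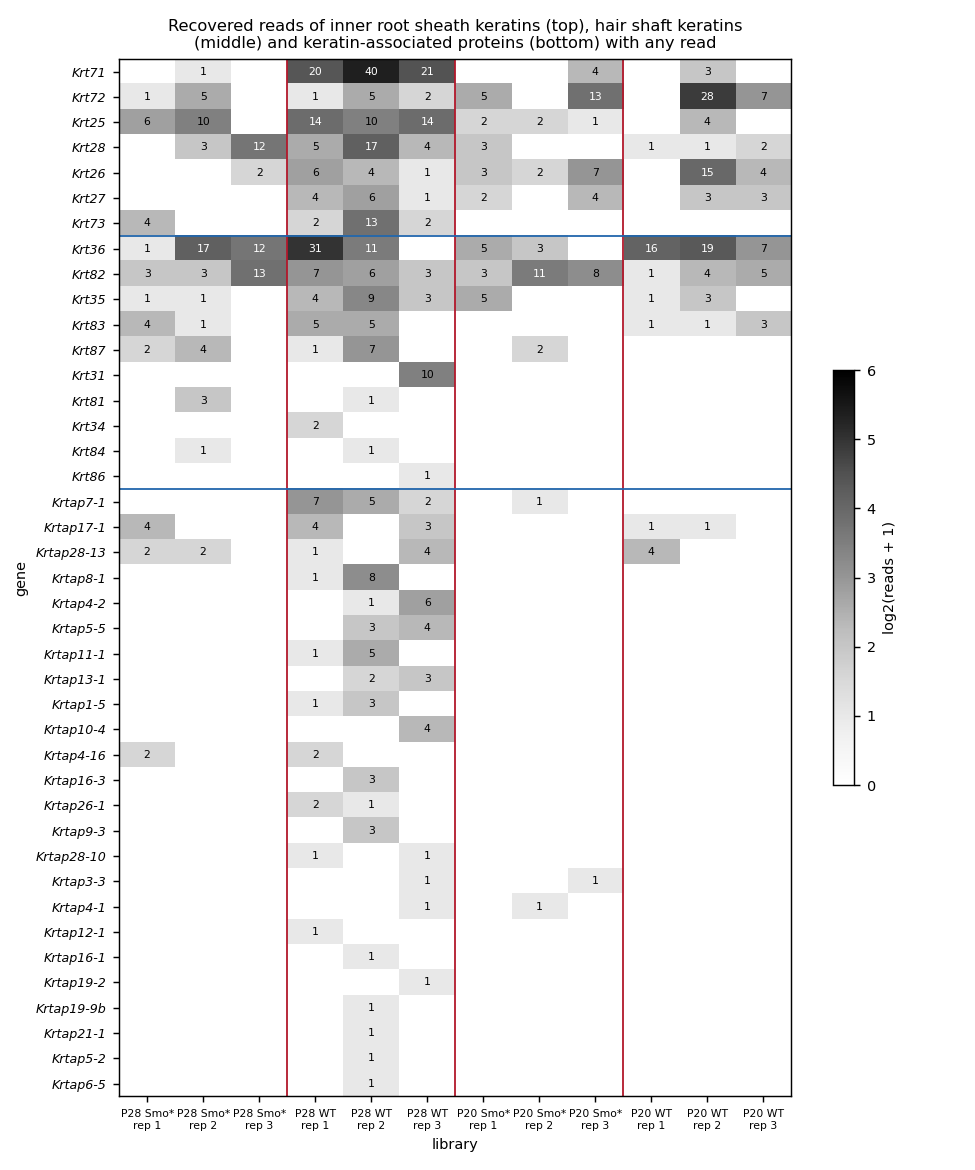
Recovered whole reads (numbers in cells, shade on a log2(reads + 1) scale) of the inner root sheath keratins, hair shaft keratins and keratin-associated proteins with any read (rows, in that order from the top) in each of the 12 libraries (columns). Krt71 holds 1 read in P28 Smo* and 20, 40 and 21 in P28 WT, and the keratin-associated proteins fill mainly the P28 WT columns, while Krt36 and Krt82 are spread over all 4 groups.

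Other markers of the hair matrix, inner root sheath and shaft moved only in part beside these reads. Of 16 markers, 8 were tested at P28, where limma called 0 higher and 1 lower in Smo*: Crym, a thyroid hormone binding protein (log2 -4.66, SE 0.44, limma adjusted p = 0.000815), at 76, 165 and 41.7 normalized counts in P28 Smo*, against 1849, 1769.7 and 2681 in P28 WT. Foxn1 and Dsg4 were named after their values were seen. Foxn1, a transcription factor of the hair matrix and cortex, had 1.07 to 4.74 normalized counts in P28 Smo* and 20.2 to 35 in P28 WT, and was not called by limma (log2 -2.90, SE 0.75, adjusted p = 0.0512), though edgeR and DESeq2 called it. Dsg4, a desmosomal cadherin of the shaft, was at 0 in all 12 libraries. The list summed to 624 to 1130.5 normalized counts in P28 Smo*, 2832 to 4095 in P28 WT, 607 to 839 in P20 Smo* and 660.1 to 848 in P20 WT. Crym alone made up most of that sum in P28 WT, so the sum mainly follows 1 gene there. In P28 WT Crym averaged 2100 normalized counts, where Msx2 averaged 624, Selenbp1 376 and Foxn1 27.3. Which cells made the Crym RNA was not tested. Msx2 (log2 -1.31, limma adjusted p = 0.127) and Selenbp1 (log2 -0.43, limma adjusted p = 0.19) were not called at P28. Of the 8 tested, 2 were above 0 and 6 below. Melanocyte markers, which would mark pigment cells of the bulb, summed to 171 to 224 in P28 Smo*, 104 to 239 in P28 WT, 133 to 174 in P20 Smo* and 107 to 188 in P20 WT. The part of follicle epithelium in the Krt71 and keratin-associated protein reads was not tested.

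Keratins of other epithelia summed to 1.57 ± 0.345 RPM in P28 Smo*, 2.44 ± 0.298 in P28 WT, 1.86 ± 0.108 in P20 Smo* and 1.99 ± 0.846 in P20 WT (SD, n = 3 each), and limma called none between genotypes. Krt80, a type II keratin of many epithelia, had 39.7, 28.5 and 86.6 normalized counts in P28 Smo*, 43.5, 54.6 and 34.1 in P28 WT, 49.6, 54 and 49.3 in P20 Smo*, and 38.4, 95.7 and 53 in P20 WT. Its groups overlapped throughout, with log2 fold changes of 0.09 at P28 (SE 0.48, limma adjusted p = 0.925) and -0.19 at P20 (SE 0.36, adjusted p = 0.90), and an antisense gene overlaps it. Krt23, a type I keratin, had 18.7, 5.69 and 0 normalized counts in P28 Smo*, against 55.5, 34.4 and 20.3 in P28 WT. Its groups did not overlap at P28, and the log2 fold change of -2.78 (SE 1.10) was not called (adjusted p = 0.155). Krt222 and Krt78 had at most 19 and 8 reads in a library. Krt12 and Krt24 had none, nor did Krt88, a keratin in none of the classes.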

How the data were processed

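The 12 libraries were prepared with a directional RNA kit, per the labels. Builds mm10 and GRCm38.p4 and the tools HTSeq, DESeq2, TopHat2 (version 2) and Trimmomatic are named in the submitters' processing notes. Parameters, and strand use in counting, are not given in the sources used here. The authors deposited 2 tables, 1 per age, that hold a normalized signal (read counts divided by a size factor), a log2 fold change of WT over Smo*, a p-value and an adjusted p-value, and a test statistic (score), per the file headers. The mean column equals the mean of all 12 libraries to within 0.00042, so all were scaled together. No per-sample column was unused. Every value was a whole multiple of 1 step per library, so 100% of values gave whole reads within 0.01 reads.

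From the deposited values, log2(normalized count + 1) was fitted with limma 3.58.1 (R 4.3.3) with a mean-variance trend, keeping genes whose mean reached 10, with 6 libraries per age and all 12 for contrasts between ages. Genes with Benjamini-Hochberg adjusted p under 0.05 over all genes tested were called. With 3 against 3 libraries an exact permutation test cannot give a p below 0.1, so none was used. edgeR 4.0.16 on the recovered reads called 1336 genes at P28 and 93 at P20. DESeq2 1.42.0, TMM and quantile scaling, other minimum means (none, 50), other pseudocounts (0.5, 5) and leaving out each library were also run. The main script was tested on simulated data. Symbols from GENCODE M21 matched 25562 IDs (98.7%). No library was another's duplicate: counts of libraries of 1 group differed beyond sampling noise (chi-square 38.5 to 156 per gene), which does not show that they are independent animals.

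The members and lists were chosen with earlier results of these data known. Genes named are the up to 4 of highest mean per class, every member called, and the up to 3 of highest mean per marker list; other names are marked as chosen after their values were seen, or belong to a count of 5 or fewer, or have no reads. Krt85 was listed among shaft keratins and was not analysed here.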

Additional observations from a re-analysis of the deposited data

Results flagged for a closer look

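Among the marker genes set beside the keratins, 5 had a Smo* effect at P28 that differed from that at P20 in the limma test of the difference itself. They were 3 of 10 papilla markers tested, 1 of 14 basal and outer root sheath markers and 1 of 8 hair matrix markers. The 3 melanocyte, 6 endothelial and immune and 4 suprabasal markers tested gave 0 calls. Across all genes tested 4.72% were called, and the 5 are listed because they passed. For Corin, a papilla marker named, like Lef1, for this result, the effect at P28 minus that at P20 was -5.32 on the log2 scale (SE 0.86, limma adjusted p = 0.00581), with 751 to 7856 normalized counts in P28 Smo*, 69681 to 79819 in P28 WT, 711 to 1044 in P20 Smo* and 416 to 766 in P20 WT. For Lef1, a Wnt effector in the papilla list, it was -1.88 (SE 0.48, adjusted p = 0.0457), with 763 to 1968 in P28 Smo*, 4037 to 6154 in P28 WT, 2526 to 2819 in P20 Smo* and 1982 to 4791 in P20 WT. For Crym, placed in the hair matrix list, it was -3.73 (SE 0.75, limma adjusted p = 0.0171), with levels of 41.7 to 165 normalized counts in P28 Smo*, 1769.7 to 2681 in P28 WT, 15.7 to 57.5 in P20 Smo* and 37.3 to 96.8 in P20 WT. The cells that made the Crym RNA were not tested. For Hhip, a Hedgehog target and papilla marker, it was -4.26 (adjusted p = 0.00359), with 8915 to 49363 in P28 Smo*, 36605 to 42843 in P28 WT, 13606 to 14815 in P20 Smo* and 1039 to 1528 in P20 WT. For Itga6, it was 1.17 (SE 0.27, adjusted p = 0.0328), with 1369 to 2477 in P28 Smo*, 652 to 854 in P28 WT, 2035 to 2442 in P20 Smo* and 1895 to 2316 in P20 WT. With limma, all libraries and the minimum mean of 10, no keratin passed that test.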

How the results depend on the processing

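Of the alternatives for single named keratins, 442 values kept direction and side of the threshold, 12 passed it newly, 11 lost it and 1 reversed, which was Krt5 at P20 (log2 -2.06 to 0.26 with each library left out, the highest without P20 WT replicate 3). The number of keratins called moved as follows, and where no value above shows why, the cause was not tested. At P28 it was 1 with a mean of at least 50 (fewer genes tested), 3 with DESeq2 (Krt1, Krt19 and Krt71), 4 in the authors' deposited table, and 1 to 3 with each library left out; 1 fit of all libraries gave 2, Krt19 and Krt7, with Krt71 under its filter. At P20 it was 1 with DESeq2 and 1 in the authors' deposited table. For the difference between ages in genotype effect it was 2 with no filter (Krt71 and Krtap7-1), 1 with DESeq2 and 0 to 1 with each library left out. For P28 over P20 in Smo* it was 0 to 1 with each library left out, and in WT it was 7 with no filter, 1 with a mean of at least 50 and 1 to 3 with each library left out. The summed share of all 104 genes at P28, Smo* over WT, was -0.74 on the log2 scale and -0.53 with the 13 mitochondrial and the top 10 genes out of the total.

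Counts over all genes moved more. At P28 they were 1313 with limma, 2296 with DESeq2, 2058 in 1 fit of all libraries, 2880 in the authors' deposited table and 461 to 1619 with each library left out; at P20 they were 102, 480 with DESeq2, 342 in the authors' deposited table and 8 to 129 with each library left out. For the difference between ages they were 698, 1482 with DESeq2 and 254 to 922 with each library left out; for P28 over P20 in Smo* 511, 1615 with DESeq2 and 49 to 1049, and in WT 3761 and 2336 to 4423. No paired analysis was possible because the labels give no replicate numbers that groups share; the bracketed number in each title is used once only. Depth limits the scarce classes: 69 of the 104 genes had under 12 reads in all libraries together.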
